A study of Mus musculus with 6 samples.

Results

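The Ndrg family of the mouse (N-myc downstream regulated genes) was examined in whole-heart RNA sequencing of 6 male mice aged 6 weeks on the C57Bl6J background, 3 cKO and 3 fl/fl. The cKO mice carried floxed cyclin C alleles together with the aMHC cre transgene, in which the promoter of alpha myosin heavy chain drives Cre recombinase in heart muscle cells. The fl/fl mice carried the same floxed alleles and no Cre, so Cre and the deletion differed together between the groups. The members were the rows named Ndrg1, Ndrg2, Ndrg3 and Ndrg4, all 4 genes of the family, among 24314 rows with a value in every library. They were chosen with the genotype difference of Ndrg4 already known, so the genotype values of the members are a description and carry no p-value.

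NDRG proteins share the fold of alpha/beta hydrolases but lack the residues that make those enzymes catalytic. They act instead as adaptors in membrane trafficking, stress responses and cell growth, and kinases of the SGK and AKT groups phosphorylate some of them. NDRG1 rises in hypoxia and its loss in humans causes a demyelinating neuropathy. NDRG2 is abundant in astrocytes, heart and skeletal muscle, NDRG3 is expressed broadly with a high level in testis, and NDRG4 is mostly found in brain and heart. In zebrafish, loss of ndrg4 reduces the number of heart muscle cells and weakens the heartbeat, and in humans variants near NDRG4 are associated with the QT interval of the electrocardiogram.

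The values are FPKM, fragments scaled by transcript length and by the size of the library, so levels of different genes can be set side by side. What a row counts depends on the gene model behind it. The locus of Ndrg4 in the files, chromosome 8 from 98226937 to 98239019, spans 12083 bases, against 37983 bases for the whole gene in RefSeq (GRCm38.p6). Of 11 Ndrg4 transcripts in GENCODE M21, Ndrg4-202 has exactly that span, at chr8:95703037-95715119 of GRCm38 on the plus strand. It begins at an internal start site, and the transcripts that begin further upstream reach outside a span of that length. For Ndrg1 (chromosome 15, 66760880 to 66801203) the file's span of 40324 bases equals the RefSeq gene, for Ndrg2 (chromosome 14, 52524946 to 52533163) its 8218 bases equal the distance from a start at 51913488 to the gene's end, and for Ndrg3 (chromosome 2, 156753078 to 156817847) its 64770 bases equal the distance from a start at 156992111. The positions of the files are given as deposited, and those of Ndrg2, Ndrg3 and Ndrg4 do not match GRCm38. As their build is not settled, only the lengths were compared with GRCm38. No other row of the table overlapped a member.

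RefSeq promoter windows, running from 250 bases before a start site to 50 bases after it, were matched for 3 of the 4 members. The first sequence below is the window at the internal start of Ndrg4, next to the beginning of Ndrg4-202. The second is a window at an upstream start of Ndrg4, 1 of 3 upstream windows that a span of 12083 bases does not reach, shown because it alone of the 4 Ndrg4 windows holds an E-box. The third is the Ndrg2 window whose start gives the file's span. All are from GRCm38.p6 and read in the direction of the gene, and capitals mark TATAAA in the first and CACGTG in the second.
Ndrg4, chr8:95702806-95703105, plus strand: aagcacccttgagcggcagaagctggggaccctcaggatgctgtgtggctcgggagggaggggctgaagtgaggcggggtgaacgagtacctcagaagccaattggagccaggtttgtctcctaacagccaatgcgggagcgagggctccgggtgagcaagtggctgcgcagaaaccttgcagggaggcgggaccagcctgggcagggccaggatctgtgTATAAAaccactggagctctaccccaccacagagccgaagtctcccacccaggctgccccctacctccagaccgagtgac
Ndrg4, chr8:95677513-95677812, plus strand: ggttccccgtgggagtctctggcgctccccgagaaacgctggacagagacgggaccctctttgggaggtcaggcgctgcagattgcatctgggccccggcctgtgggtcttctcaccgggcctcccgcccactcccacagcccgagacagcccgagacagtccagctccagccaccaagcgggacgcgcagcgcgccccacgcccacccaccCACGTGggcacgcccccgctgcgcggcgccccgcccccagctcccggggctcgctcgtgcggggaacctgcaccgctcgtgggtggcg
Ndrg2, chr14:51913439-51913738, minus strand: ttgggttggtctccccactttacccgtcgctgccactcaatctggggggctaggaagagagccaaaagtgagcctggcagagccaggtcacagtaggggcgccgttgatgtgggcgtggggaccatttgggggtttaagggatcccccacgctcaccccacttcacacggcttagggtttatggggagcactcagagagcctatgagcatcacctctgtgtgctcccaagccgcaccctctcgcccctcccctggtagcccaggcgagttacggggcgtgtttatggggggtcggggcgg
The TATAAA of the internal Ndrg4 window starts 30 bases before the start site. Of 32851 windows of that length across the genome, 13.6% held TATAAA on either strand and 7.15% held CACGTG, the E-box read by MYC and clock factors. The upstream window shown had 31 CpG pairs and a GC content of 73.7%, against 11 pairs and 62.7% at the internal start, and the median window of the genome had 7 pairs and 52.7%. The other upstream windows of Ndrg4 had 40 pairs and 74.3%, and 7 pairs and 56.3%, and held none of the motifs searched. The letters ACGTG, the core of the hypoxia response element, were found at 2 positions of the upstream window, both inside or overlapping the E-box, and in neither of the other windows shown. In all windows 19.6% held ACGTG. The other motifs searched were AGAACA (in 19% of all windows) and, by name, the MEF2 and CArG elements (in 3.19% and 1.63%). None of these was found in the windows shown. Another Ndrg2 window, not shown, at a start of 51914004, held a MEF2 match 32 bases before the start. It also held TATAAA on the opposite strand, 29 bases before the start. These matches describe the letters of the windows and say nothing of binding.

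Ccnc, the gene deleted in cKO hearts, read 5.81, 5.7 and 4.53 FPKM in cKO 1, 2 and 3, against 8.48, 7.6 and 10.8 FPKM in fl/fl 1, 2 and 3. The groups did not overlap, the log2 change was -0.65 (SE 0.15), and the gene was not called (limma, adjusted p = 0.144). The FPKM of a library summed to between 589196 and 616158 in cKO and between 627881 and 768960 in fl/fl. Read numbers were not at hand. Relative depth, judged from the smallest increments among low FPKM and set to 1 in fl/fl 1, reached 1.11 at most in cKO and 0.892 at least in fl/fl. The library of fl/fl 1 stood apart in fat cell genes: Cfd, which encodes adipsin, read 295.5 FPKM there, against 4.37 to 10.95 FPKM in the other 5 hearts, and Adipoq 56.4 FPKM, against at most 3.16 FPKM. Without fl/fl 1 the log2 changes were -1.89 for Ndrg4, -0.52 for Ndrg2, 0.16 for Ndrg1 and -0.06 for Ndrg3.

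Ndrg2 was by far the most abundant member. It read 619.2, 631.1 and 519.9 FPKM in cKO 1, 2 and 3, against 674.9, 991.7 and 722 FPKM in fl/fl 1, 2 and 3. Every cKO heart lay below every fl/fl heart, and fl/fl 2 stood well above the other two fl/fl hearts. The mean was 590.0 ± 61.0 FPKM in cKO and 796.2 ± 171 FPKM in fl/fl (SD, n = 3 each), a ratio of 0.741 and a log2 change of -0.42 (SE 0.17) on the log2(FPKM + 1) scale. Without fl/fl 2 the log2 change was -0.25. In each library Ndrg2 ranked between percentile 98.3 and 99.1 of the 12103 genes with a mean of at least 1 FPKM.

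Ndrg4 was second in level and differed most between the genotypes. It read 36.2, 58.4 and 47.7 FPKM in cKO 1, 2 and 3, against 107.5, 153 and 199.8 FPKM in fl/fl 1, 2 and 3. The highest cKO heart lay below the lowest fl/fl heart, and both groups were spread widely, with a coefficient of variation of 23.5% in cKO and 30.1% in fl/fl. The mean was 47.4 ± 11.1 FPKM in cKO and 153.4 ± 46.2 FPKM in fl/fl (SD, n = 3 each), a ratio of 0.309, or 3.23-fold lower, and a log2 change of -1.65 (SE 0.24). Its rank among the genes ran from percentile 81.6 to percentile 96.4 over the 6 libraries, the widest range of the 4 members.

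Ndrg1 read 22.4, 24.2 and 18.6 FPKM in cKO 1, 2 and 3, against 17.1, 23 and 16 FPKM in fl/fl 1, 2 and 3. The groups overlapped, and in both genotypes replicate 2 was highest and replicate 3 lowest. The mean was 21.7 ± 2.87 FPKM in cKO and 18.7 ± 3.79 FPKM in fl/fl (SD, n = 3 each), with a log2 change of 0.21 (SE 0.16). Without fl/fl 2 that change was 0.37, without cKO 2 it was 0.14 and without fl/fl 3 it was 0.12. It was the member with a positive sign.

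Ndrg3 had the lowest level and the smallest spread, with a coefficient of variation of 7.31% in cKO and 11.1% in fl/fl. It read 9.88, 11.3 and 11.2 FPKM in cKO 1, 2 and 3, against 13.4, 11.8 and 10.8 FPKM in fl/fl 1, 2 and 3. The groups overlapped. The mean was 10.8 ± 0.789 FPKM in cKO and 12 ± 1.33 FPKM in fl/fl (SD, n = 3 each), and the log2 change was -0.13 (SE 0.11). That value was -0.06 without fl/fl 1, -0.08 without cKO 1 and -0.20 without fl/fl 3.

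**Figure D1:**
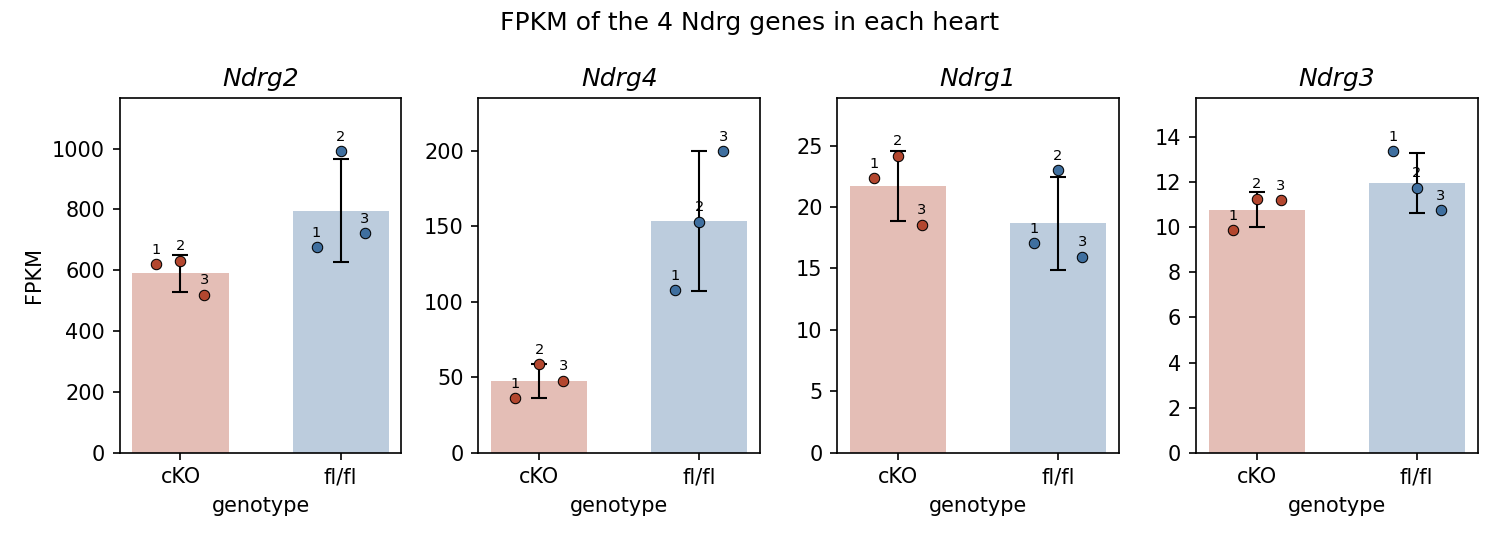
FPKM of each Ndrg gene (vertical axes from 0, a scale for each gene) in cKO and fl/fl hearts. Bars are means, error bars the SD of 3 hearts and numbered points the single hearts. The cKO points of Ndrg4 lie between 36.2 and 58.4 FPKM, all below the fl/fl points, while the groups of Ndrg1 and Ndrg3 overlap.

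In the fit across all genes Ndrg4 was called lower and the other 3 members were not called (limma, Benjamini-Hochberg adjusted p under 0.05). That threshold called 27 of 12103 genes lower in cKO, or 0.223%, and 0.587% in either direction. The groups did not overlap for 2 of the 4 members, Ndrg2 and Ndrg4, both lower in cKO, against 10.3% of all genes lower in cKO and 20.4% in either direction. As the family was chosen from this contrast, nothing is read from these counts. The authors' deposited table likewise marked Ndrg4 and none of the other 3 as significant, where 474 of 12587 genes, or 3.77%, had a q-value under 0.05. The call of Ndrg4 held without fl/fl 1 and was lost in each of the other 5 fits that left out a library. Its log2 change lay between -1.89 and -1.44 over the 6 fits. Over all genes those 5 fits called 13 to 33 genes and the fit without fl/fl 1 called 50, against 71 with every library.

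The order of the members was the same in each of the 6 hearts, with Ndrg2 first, then Ndrg4, Ndrg1 and Ndrg3. No neighbours in that order overlapped over the 6 hearts: the lowest Ndrg4 value, 36.2 FPKM in cKO 1, was above the highest Ndrg1 value, 24.2 FPKM in cKO 2, and the lowest Ndrg1 value, 16 FPKM in fl/fl 3, was above the highest Ndrg3 value, 13.4 FPKM in fl/fl 1. The distance between Ndrg4 and Ndrg1 was narrower in cKO. The ratio of Ndrg4 to Ndrg1 was 1.62, 2.42 and 2.57 in cKO 1, 2 and 3, against 6.29, 6.65 and 12.5 in fl/fl 1, 2 and 3. A ratio within a library does not depend on how libraries were scaled, and it shows unequal change of the pair, not which of them changed.

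The summed FPKM of the family was 687.6, 725 and 597.4 in cKO 1, 2 and 3, against 812.8, 1179 and 948.6 in fl/fl 1, 2 and 3. Of the difference between the mean sums, -310.3 FPKM (cKO minus fl/fl), Ndrg2 contributed 66.4% and Ndrg4 34.2%. Ndrg2 made up 88 ± 1.74% of that sum in cKO and 81.1 ± 4.33% in fl/fl (SD, n = 3 each). The share of Ndrg4 was 7.1 ± 1.6% in cKO and 15.75 ± 4.61% in fl/fl, and fl/fl 3 held the highest share at 21.1%. Ndrg1 made up 3.23 ± 0.116% in cKO and 1.91 ± 0.212% in fl/fl, and the groups did not overlap. The FPKM of Ndrg1 itself did overlap, and its share also depends on the sum, which was lower in every cKO heart. The share of Ndrg3 overlapped between the genotypes, at 1.62 ± 0.228% in cKO and 1.26 ± 0.343% in fl/fl.

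**Figure D2:**
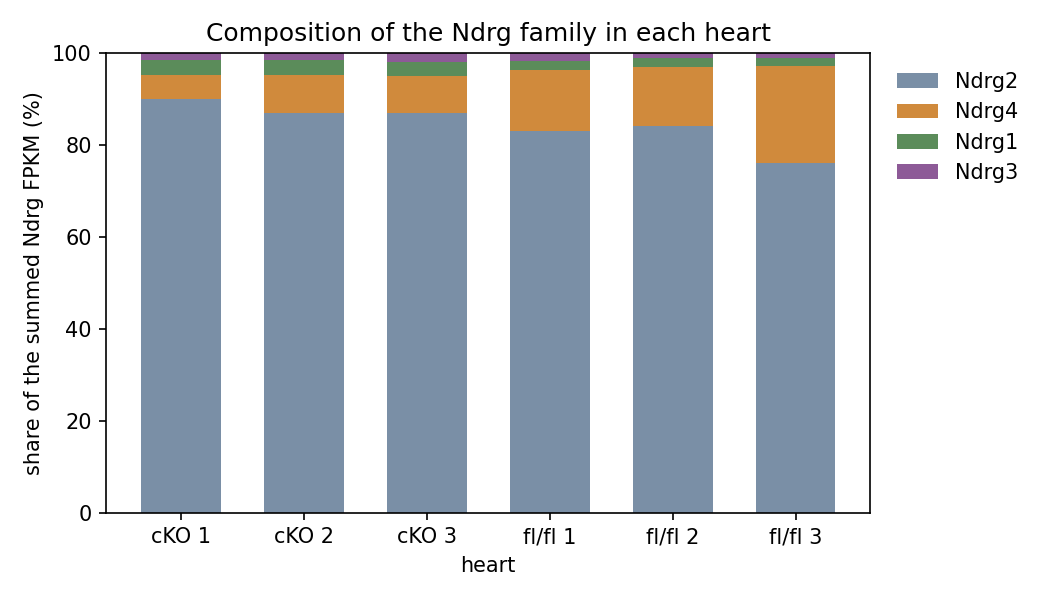
Share of each Ndrg gene in the summed FPKM of the family (vertical axis, %) in each heart (horizontal axis). Ndrg2 fills between 76.1% and 90.05% of every bar, and the Ndrg4 segment is between 5.26% and 8.06% in cKO and between 13% and 21.1% in fl/fl.

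Reads could in principle be shared between members. The longest identical stretch between transcripts of a pair of members in GENCODE M21 was 33 bases, between Ndrg2 and Ndrg4, and the other 5 pairs shared at most 21 bases. The nearest row beyond Ndrg4 was Setd6, a lysine methyltransferase gene 793 bases away. It read 5.88, 8.25 and 5.89 FPKM in cKO 1, 2 and 3, against 6.23, 10.7 and 7.91 FPKM in fl/fl 1, 2 and 3, so the groups overlapped, and it was not called (limma, log2 change -0.26, SE 0.19). Gins3, the row on the other side, read 1.27 ± 0.0549 FPKM in cKO and 1.17 ± 0.308 FPKM in fl/fl (SD, n = 3 each).

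The label of the tissue was checked against markers of heart muscle. Ventricular cardiomyocyte markers summed to between 52430 and 58267 FPKM in cKO and between 77579 and 104741 FPKM in fl/fl. Of the 14 markers 12 had a negative log2 change, with a median of -0.60 against -0.00196 over all genes. In limma 2 fell (adjusted p under 0.05), Mb (myoglobin) and Ryr2 (the calcium release channel), against 0.223% of all genes. In every cKO heart 10 of the 14 were lower than in any fl/fl heart, and 1, Actc1, was higher. Over all genes 10.3% were lower and 10.1% higher in this way. The authors' deposited table called 6 of the 14, against 3.77% of the genes it tested. In whole tissue, fewer cells of a type and less RNA per cell cannot be told apart. Ratios of Ndrg4 and Ndrg2 to each marker within a library describe the same values again, since the numerators are those that chose the family. The ratio of Ndrg4 to the marker was lower in every cKO heart than in every fl/fl heart for 11 of the 14 markers, among them Myh6, Tnnt2, Actc1 and Atp2a2, and overlapped for Myh7, Mb and Ryr2. Over all other tested genes as denominators the same held for 95.2%, so the count for the markers is no result about them. The cKO mean of this ratio was 0.47 times the fl/fl mean at the median over the markers, ranging from 0.258 for Actc1 to 2.69 for Myh7, against a median of 0.308 over all other tested genes. The ratio of Ndrg2 to the marker was lower in cKO for 1 of the 14 markers, higher for 5 and overlapping for 8, with a median of 1.135, against 45.1% of all other tested genes lower and a median of 0.74. Over the 13 atrial markers the ratio of Ndrg4 was lower in cKO for 4, higher for 1 and overlapping for 8, with a median of 0.864. The markers come from the same libraries and are not independent of each other.

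**Figure D3:**
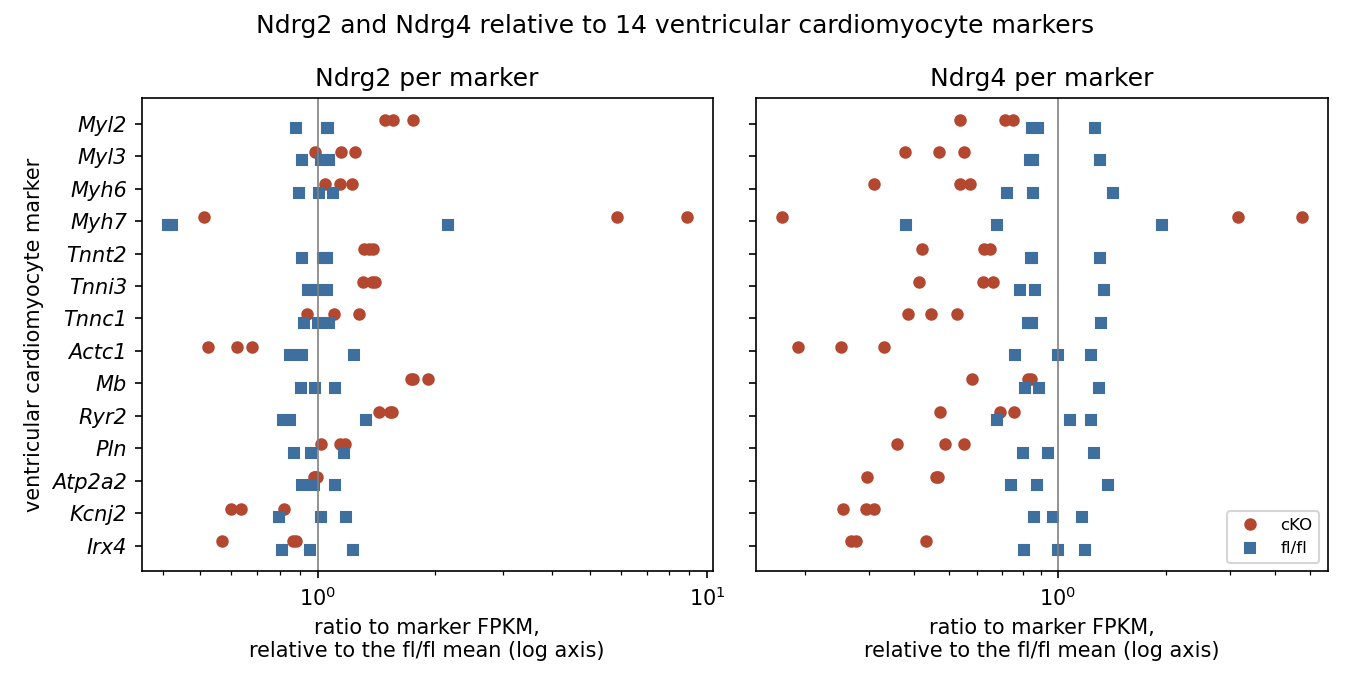
Ratio of Ndrg2 (left) and Ndrg4 (right) FPKM to the FPKM of each of 14 ventricular cardiomyocyte markers, divided by the fl/fl mean of that ratio (log axis). Red circles are the 3 cKO hearts and blue squares the 3 fl/fl hearts. For Ndrg4 the circles lie left of all squares for 11 markers, and for Ndrg2 for 1. Over all other tested genes the ratio was lower in every cKO heart for 95.2% with Ndrg4 and 45.1% with Ndrg2.

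Markers of other cell types were read in the same libraries. Of the 13 atrial markers 11 had a negative sign, 9 were lower in every cKO heart than in any fl/fl heart, and the median log2 change was -1.39, near the -1.65 of Ndrg4. Bmp10 and Sbk2 fell in limma and 8 of the 13 were called in the authors' deposited table. Over all genes 10.3% were lower in every cKO heart and 0.223% were called lower in limma. The authors' deposited table called 3.77% of the genes it tested. Myl7, an atrial myosin light chain, read 323.5, 57.5 and 64 FPKM in cKO 1, 2 and 3, against 1116, 808 and 681.6 FPKM in fl/fl 1, 2 and 3 (limma log2 change -2.99, adjusted p = 0.0997). Myl4, Mybphl and Sln had log2 changes of -2.64, -2.44 and -2.42 and were not called. The list summed to 4313, 1285 and 2416 FPKM in cKO 1, 2 and 3, against 6478, 4402 and 3683 FPKM in fl/fl 1, 2 and 3. Nppa was the largest part of each sum, at 3231, 1040 and 2178 FPKM in cKO 1, 2 and 3. It read 3715, 2436 and 1827 FPKM in fl/fl 1, 2 and 3, so the groups overlapped. In both genotypes the heart with the highest atrial sum had the lowest Ndrg4 value. This rests on 1 heart per genotype, and a link between atrial content and Ndrg4 was not tested. Neuron markers were low: Th, the enzyme of catecholamine synthesis, was at most 0.0509 FPKM and the 14 markers together summed to 12.85 to 15.9 FPKM in cKO and 16.7 to 20.5 FPKM in fl/fl, less than Ndrg4 alone in any heart. Of the 3 neuron markers tested 0 were called in limma and 1, Uchl1, had an unadjusted p under 0.05.

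Schwann and glial markers, relevant to Ndrg1 and Ndrg2, summed to 61.1 to 68.7 FPKM in cKO and 60.8 to 65.8 FPKM in fl/fl, most of it from Pmp22, and Gfap was at most 0.296 FPKM. Mast cell markers summed to 8.92 to 12 FPKM in cKO and 7.71 to 16.7 FPKM in fl/fl. Endothelial markers summed to 721.1 to 885.3 FPKM in cKO and 614.8 to 641 FPKM in fl/fl, and all 14 had a positive sign. Fibroblast markers summed to 2122 to 2380 FPKM in cKO and 1874 to 2123 FPKM in fl/fl, and 11 of 12 had a positive sign. Macrophage markers summed to 426.9 to 458.3 FPKM in cKO and 438.4 to 501.6 FPKM in fl/fl, and red blood cell markers to 1306 to 2118 FPKM in cKO and 1267 to 1732 FPKM in fl/fl. Smooth muscle and pericyte markers summed to 913.7 to 1080 FPKM in cKO and 505.5 to 531.2 FPKM in fl/fl, where Acta2, smooth muscle actin, rose to 548.5 ± 71.6 FPKM in cKO, against 96.1 ± 9.42 FPKM in fl/fl (SD, n = 3 each; limma adjusted p = 0.000212). Acta2 makes up most of the gap between these sums. Of the 11 genes of the list 8 had a positive sign. Groups did not overlap for 5 of these, Acta2, Pdgfrb, Abcc9, Notch3 and Smtn, against 10.1% of all genes apart and higher in cKO. Smtn had a log2 change of 0.17 and was not called. The 3 with a negative sign were Tagln at -0.69, Cnn1 at -0.86 and Myh11 at -0.31. They were not called in limma, and the authors' deposited table called Cnn1. Adipocyte markers summed to 1495 to 1866 FPKM in cKO and 1151 to 2390 FPKM in fl/fl, mostly from Fabp4, and Slc36a2 fell. Of the 11 tested 10 had a negative sign, with a median log2 change of -1.50. The authors' deposited table called 7 of the list, against 3.77% of the genes it tested. Those 7 were Adipoq, Plin1, Cidec, Cfd, Ucp1, Pck1 and Slc36a2. Like Cfd and Adipoq, the genes Cidec, Plin1, Pck1, Ucp1 and Retn stood far higher in fl/fl 1 than in fl/fl 2 and 3. Cidec read 35.2 FPKM in fl/fl 1, against 1.53 and 0.863 FPKM in fl/fl 2 and 3. Among the negative genes Plin4, Lipe and Slc36a2 did not stand apart in this way. Among the other members of these 8 lists none was called in limma. The part of these cell types in the values of the Ndrg genes was not tested.

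Genes linked to the family were then read from 7 lists, which together held 112 tested genes. None was called in limma, against 0.587% of all genes, and 13 had an unadjusted p under 0.05. The authors' deposited table called 4, where it called 3.77% of all genes it tested. With shares this small over all genes, these counts are no result about the lists. Unadjusted p-values under 0.05 came to 11.6% of these genes and to 12.7% of all genes. The median log2 change was -0.02 over the lists together.

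Of the 13 tested kinases that act on NDRG proteins or upstream of them, 9 had a positive and 4 a negative sign (median log2 change 0.05). Sgk1, which phosphorylates NDRG1, read 39.1, 54.4 and 57.1 FPKM in cKO 1, 2 and 3, against 36.2, 45.1 and 43.9 FPKM in fl/fl 1, 2 and 3, and the groups overlapped. Gsk3b, a kinase that acts on NDRG1 after SGK1, had the smallest p of the list, at 12.5 ± 0.224 FPKM in cKO and 10.4 ± 0.633 FPKM in fl/fl (SD, n = 3 each; limma adjusted p = 0.319). Mycn, the factor that gave the family its name, read 3.68, 1.75 and 5.29 FPKM in cKO 1, 2 and 3, against 1.65, 1.19 and 3.08 FPKM in fl/fl 1, 2 and 3, again with overlap. Of the 11 tested MYC family genes 6 were positive and 5 negative, and the smallest p belonged to Myc, at 1.19 ± 0.0854 FPKM in cKO and 1.97 ± 0.653 FPKM in fl/fl (SD, n = 3 each; limma adjusted p = 0.416).

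Hypoxia response genes, of which Ndrg1 is a known example, had 10 positive and 18 negative signs among 28 tested (median log2 change -0.03). The smallest p was that of Pfkfb4, a regulator of glycolysis, at 2.87 ± 0.403 FPKM in cKO and 1.86 ± 0.151 FPKM in fl/fl (SD, n = 3 each; limma adjusted p = 0.273). Egln3, an oxygen sensor, was lower in every cKO heart than in any fl/fl heart and was called in the authors' deposited table alone. It was singled out after its values were seen. It read 16.4, 21.9 and 22.8 FPKM in cKO 1, 2 and 3, against 25.5, 28.4 and 50.5 FPKM in fl/fl 1, 2 and 3. With Hk2 and Eno1, 3 of the 28 were lower in every cKO heart, near the 10.3% of all genes. Pfkfb4 alone was higher in every cKO heart, against 10.1% of all genes. These counts are no result about the list. The steroid response list, examined because glucocorticoids raise Ndrg2 in rat astrocytes, had 4 positive and 6 negative signs among 10 tested, and Fkbp5 had the smallest p (limma adjusted p = 0.72). Fkbp5 and Zbtb16 were called in the authors' deposited table, and both were lowest in replicate 3 of each genotype.

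Genes near NDRG4 in heart biology were read from a list of Popeye proteins, of recycling factors and of cardiac transcription factors. Of its 15 tested members 10 were positive and 5 negative (median log2 change 0.06). Bves, the Popeye protein that binds NDRG4, read 43.9, 46.1 and 53.3 FPKM in cKO 1, 2 and 3, against 43.6, 48.8 and 46.4 FPKM in fl/fl 1, 2 and 3, with overlap. Tbx5, a T-box factor of the heart, read 8.79 ± 1.26 FPKM in cKO and 11.1 ± 1.13 FPKM in fl/fl (SD, n = 3 each; limma adjusted p = 0.386). The smallest p was that of Rab4b, a recycling endosome GTPase, at 15.75 ± 1.08 FPKM in cKO and 12.5 ± 0.941 FPKM in fl/fl (SD, n = 3 each; limma adjusted p = 0.273). Among 21 tested relatives with the hydrolase fold 9 were positive and 12 negative, and Abhd6, a monoacylglycerol lipase, had the smallest p, at 10.1 ± 2.13 FPKM in cKO and 6.9 ± 0.324 FPKM in fl/fl (SD, n = 3 each; limma adjusted p = 0.248). Abhd1, singled out after its values were seen, had the highest log2 change of these relatives, 1.69 (SE 0.82), with overlapping groups, at 21.4, 30.2 and 3.04 FPKM in cKO 1, 2 and 3, against 1.25, 2.34 and 10.2 FPKM in fl/fl 1, 2 and 3. Missing the threshold does not show that these genes were alike in both genotypes.

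**Figure D4:**
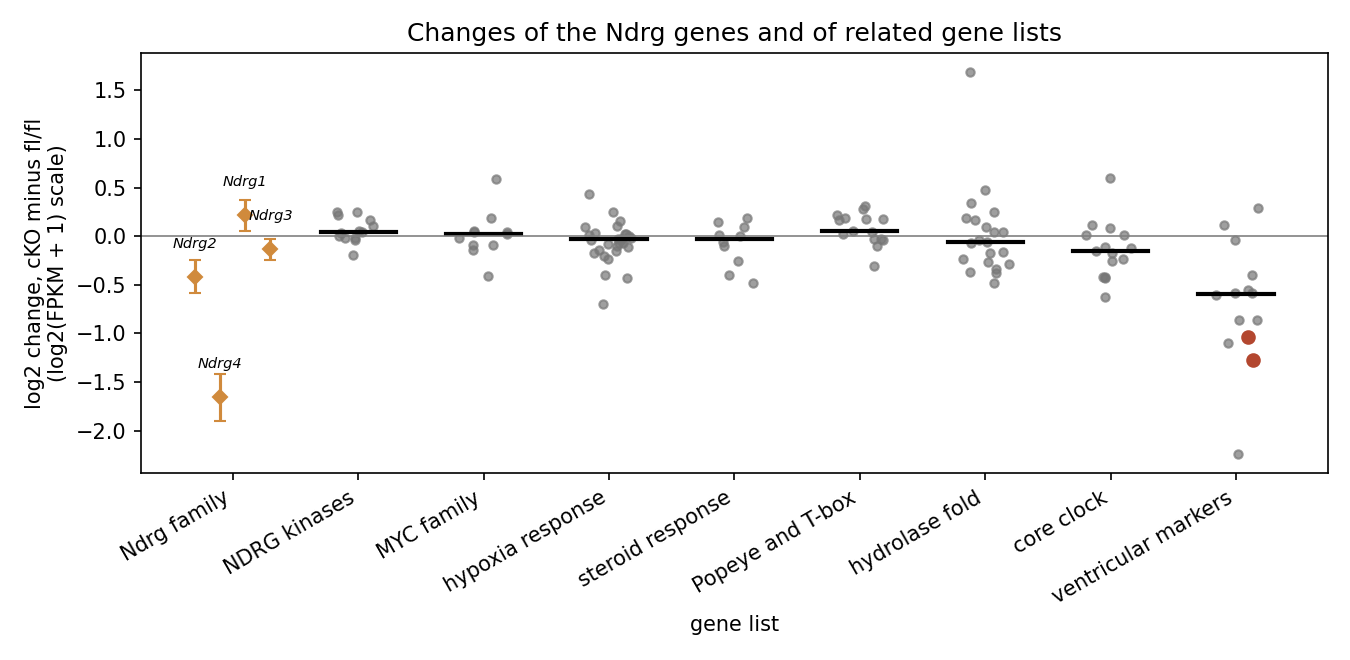
Log2 change (cKO minus fl/fl, log2(FPKM + 1) scale, vertical axis) of the 4 Ndrg genes with their SE (diamonds) and of the tested genes of 7 related lists and of ventricular markers (circles, with the list median as a black line and called genes in red). Ndrg4 lies at -1.65, below every gene of the 7 related lists, while Myh7 among the ventricular markers lies lower at -2.24. Myh7 was not called, with an SE of 0.96 and overlapping groups.

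Clock genes set replicate 3 apart from replicates 1 and 2 in cKO and in fl/fl alike, a division that runs across the genotypes. Per2, a core clock repressor, stood at 0.999 FPKM in cKO 3 and 1.66 FPKM in fl/fl 3 and at 10.1 FPKM or more in the other hearts. Of 15 tested clock genes 5 were positive and 10 negative between genotypes, and Npas2 had the smallest p (limma adjusted p = 0.527) and was the only member called in the authors' deposited table. Within replicates 1 and 2 alone the log2 change was -1.46 for Ndrg4, -0.39 for Ndrg2, -0.23 for Ndrg3 and 0.22 for Ndrg1, and Ndrg4 was not called there. Replicate 3 leaves 1 heart per genotype, with Ndrg4 at 47.7 FPKM in cKO 3 and 199.8 FPKM in fl/fl 3.

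Finally, the genes whose profile over the 6 libraries lay closest to each member were listed by the root mean square difference of their log2(FPKM + 1) values, each centred on its own mean. For Ndrg4 these were Mb at a difference of 0.329, Myot at 0.347 and Myl2 at 0.364. Mb read 7493, 8336 and 6948 FPKM in cKO 1, 2 and 3, against 15902, 20788 and 18482 FPKM in fl/fl 1, 2 and 3. Myot, which encodes the Z disc protein myotilin, read 3.29, 4.88 and 3.5 FPKM in cKO 1, 2 and 3, against 8.73, 17.6 and 10.6 FPKM in fl/fl 1, 2 and 3. Myl2, the ventricular myosin light chain, averaged 9321 ± 796 FPKM in cKO and 20206 ± 3863 FPKM in fl/fl (SD, n = 3 each).

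Genes closest to Ndrg2 included Abhd11, a mitochondrial member of the hydrolase fold list, at 0.0344, and Fuom, a fucose mutarotase, at 0.0401. Abhd11 read 40, 40.9 and 31.9 FPKM in cKO 1, 2 and 3, against 42.4, 63.2 and 43.8 FPKM in fl/fl 1, 2 and 3, with fl/fl 2 highest as for Ndrg2. Those of Ndrg1 were Plekhm2, Suclg2 and Pla1a, at 0.0512 to 0.0577, and those of Ndrg3 were D19Bwg1357e, Med11 and Ccnj, at 0.0341 to 0.0389. The 3 genes named for Ndrg4 lay further from it than those named for the other members did. The difference was not scaled by how much a gene varies and Ndrg4 had the largest change, so nothing is read from this. Mb, Myot and Myl2 were each highest in fl/fl 2, whereas Ndrg4 was highest in fl/fl 3. With 6 libraries these are descriptions of likeness only.

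**Figure D5:**
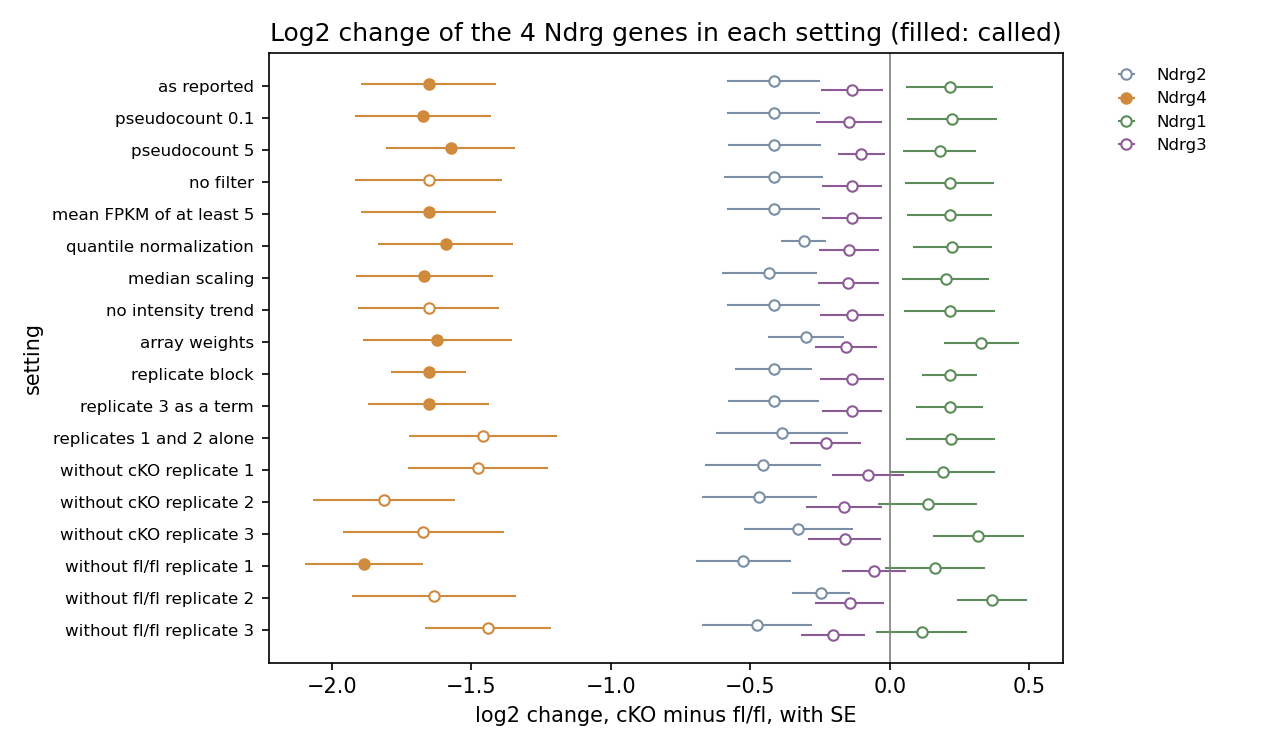
Log2 change of each Ndrg gene (horizontal axis, with SE) as reported and in 17 other settings (vertical axis). Filled points were called and open points were not. Ndrg4 stays between -1.89 and -1.44, Ndrg2 and Ndrg3 are negative and Ndrg1 positive in every setting shown.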

How the data were processed

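Libraries enriched for polyadenylated RNA were made from 6 whole hearts, and titles of the samples gave group and replicate number. Alignment used TopHat (1.0.0) with mm10, followed by Cufflinks and Cuffdiff, per the submitters' processing notes. The deposited position of Ndrg4 does not match mm10 (GRCm38). It begins at 98226937, where Ndrg4-202, of the same length, begins at 95703037 in GRCm38. The authors deposited FPKM per gene for each heart, and a second table with group FPKM and, for each gene, its p-value and q-value. The value 0.01 stands in place of 0 and filled 6563 rows entirely. A row with a failed value was left out and 27 date-named rows stayed unnamed. The series text speaks of stranded libraries, but the kit in the labels does not record strand.

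Since FPKM are no counts, limma 3.58.1 (R 4.3.3; eBayes with intensity trend, two-sided) was run on log2(FPKM + 1), which understates changes of low genes. All 6 libraries and the 12103 genes averaging at least 1 FPKM entered, and p-values were adjusted after Benjamini-Hochberg and called under 0.05. The code was tested on simulated data. Members and lists were chosen with earlier results of these data known. The naming rule took the members, Ccnc, called genes and the smallest p of each related list, called markers, and the 3 closest profiles per member; other genes were named after their values were seen. Some items that this rule takes are not reported here. Alternatives varied pseudocount, filter, scaling, variance model, replicate terms and the libraries included. No pair of libraries was identical (closest root mean square log2 difference 0.252).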

Additional observations from a re-analysis of the deposited data

How the results depend on the processing

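Over 17 other settings the log2 change of Ndrg4 ran from -1.89 to -1.44, that of Ndrg2 from -0.52 to -0.25, that of Ndrg3 from -0.23 to -0.06 and that of Ndrg1 from 0.12 to 0.37, each with the same sign throughout. None moved by more than its spread between hearts. Ndrg4 was called in 9 of the 17 and not called with no filter, with no intensity trend, within replicates 1 and 2 alone and in 5 of 6 fits that left out a library; the other members were called in 0.

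The 71 called genes (44 higher, 27 lower) became 14 (10 and 4) with no filter, 38 (23 and 15) with no intensity trend, 123 (69 and 54) with replicate 3 as a term and 13 (10 and 3) within replicates 1 and 2 alone. Leaving out a library gave 13 to 50 calls, 9 to 29 higher and 4 to 21 lower. With the replicate number as a block 213 genes were called, 117 higher and 96 lower, but the numbers are not shown to pair the animals: deviations of same-numbered hearts correlated at 0.089, 0.271 and 0.429, and cKO 1 correlated more with fl/fl 2 (0.152) than with fl/fl 1. Of the values for named genes and lists 959 stayed on their side of the threshold or within the spread, 25 lost and 3 gained a call, and 45 moved. No named gene reversed its sign, while the signs of list medians were not compared. For the mast cell list a minimum of 5 FPKM left no gene and no value. The cause of these shifts was not tested. With 3 hearts per genotype and no read numbers, the precision of low genes is unknown.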
